A study of Mus musculus with 14 samples.

Results

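The loci described here are those of 5 mouse genes, Obsl1, Plpp7, Prkg1, Cdh23 and Pik3ap1, in ATAC-seq of long-term haematopoietic stem cells (LT-HSC) and of MPP3, a multipotent progenitor biased towards myeloid output. ATAC-seq marks open chromatin by the places where a transposase can insert adapters. The members are the regions whose mean over the 14 libraries reached 50 and which overlap a gene's RefSeq bounds extended by 10 kb on each side. Of 603 regions in these 5 windows 60 met that rule, out of 59189 regions at that level and 705361 in the whole table. Obsl1 held 9 of them, Plpp7 1, Prkg1 6, Cdh23 28 and Pik3ap1 16. The question put to them was whether a lower signal in MPP3 belonged to a single element or to the locus as a whole.

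All donors were young and of strain C57BL/6J, and all recipients were lethally irradiated CD45.1 mice given 1000000 whole marrow cells. The labelled donor genotypes were WT (Mx-Cre), Dnmt3a-flR878H/+ (Dnmt3a), Npm1-frt/+ (Npm1, Npm1c in sample titles) and the compound of both alleles (Dnmt3a;Npm1). Every group, WT included, received poly(I:C), the inducer of the Mx1 promoter that drives this Cre, at 4 weeks, then tamoxifen and harvest at further intervals of 4 weeks. Of the 8 groups 6 held 2 libraries, whereas 1 library stood for Dnmt3a in LT-HSC and 1 for Dnmt3a;Npm1 in MPP3. Whether replicates are separate animals is not in the labels, and the p-values therefore reflect only library-to-library spread, possibly technical.

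The genes were chosen on these libraries. Obsl1, Plpp7 and Prkg1 were selected on the MPP3 minus LT-HSC difference averaged over the 4 genotypes, and Cdh23 and Pik3ap1 on that difference in WT. Those differences are therefore given as descriptions, and only measures outside the choice are tested. The leading region of a locus is the member of smallest p in the contrast that selected its gene. Since a region could pass the level of 50 through 1 cell type alone, counts over members describe the windows and support nothing. At the level of 50 the members just inside were at means of 50.4 (Cdh23) to 94.8 (Plpp7), and the regions just outside at 41.9 (Plpp7) to 49.9 (Pik3ap1).

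The products of these genes belong to different pathways. OBSL1 is a cytoskeletal adaptor of the obscurin family and part of the 3M complex, which works with a cullin ubiquitin ligase. PLPP7 is a membrane protein related to the lipid phosphate phosphatases, and PRKG1 is the cGMP-dependent protein kinase through which nitric oxide signals in smooth muscle and platelets. Cadherin 23, from Cdh23, forms the tip links of hair cells in the inner ear. BCAP, from Pik3ap1, couples B cell receptor and Toll-like receptor signals to phosphoinositide 3-kinase. A gene's accessible elements, its promoter and distal enhancers, can open or close independently of each other and of neighbouring genes that lie in the same interval, and accessibility alone does not report transcription.

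At Obsl1 and Prkg1 the leading region overlapped an annotated start, so the RefSeq promoters (250 bases before to 50 after the start, GRCm38.p6, all on the minus strand) are shown 5′ to 3′, the second Prkg1 start as the comparison that differed less. Capitals mark matches on either strand to 7 motifs, namely AGATAA for the factors of the Gata family, TGTGGT for those of the Runx family, GGAAGT for the Ets family, CAGCTG as an E-box, TGANTCA for AP-1, TTGCNNAA for the C/EBP family and CCAAT for NF-Y.
Obsl1, chr1:75506403-75506702: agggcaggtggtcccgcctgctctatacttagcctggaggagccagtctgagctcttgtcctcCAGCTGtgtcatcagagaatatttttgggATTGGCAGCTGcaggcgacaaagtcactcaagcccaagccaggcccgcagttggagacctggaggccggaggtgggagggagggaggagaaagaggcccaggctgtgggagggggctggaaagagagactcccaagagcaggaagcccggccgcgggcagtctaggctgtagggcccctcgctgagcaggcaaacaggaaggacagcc
Prkg1 internal start, chr19:31664321-31664620: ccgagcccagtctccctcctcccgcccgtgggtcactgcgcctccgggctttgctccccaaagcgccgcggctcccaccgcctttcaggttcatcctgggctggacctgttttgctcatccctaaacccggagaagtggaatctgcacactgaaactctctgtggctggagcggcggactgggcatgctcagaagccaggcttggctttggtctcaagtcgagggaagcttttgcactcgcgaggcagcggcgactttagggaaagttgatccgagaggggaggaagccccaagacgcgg
Prkg1 upstream start, chr19:31764984-31765283: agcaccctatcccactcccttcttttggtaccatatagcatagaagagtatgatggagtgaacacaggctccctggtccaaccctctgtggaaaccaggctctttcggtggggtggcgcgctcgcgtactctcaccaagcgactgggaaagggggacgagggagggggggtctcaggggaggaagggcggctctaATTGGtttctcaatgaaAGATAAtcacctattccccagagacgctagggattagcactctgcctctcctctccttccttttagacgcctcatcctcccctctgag
The Obsl1 promoter held CAGCTG 2 times and CCAAT once, side by side without overlap at the second site, and none of the other motifs. The internal Prkg1 promoter held none of the 7 motifs and had 20 CG dinucleotides and 62.3% G or C. The upstream Prkg1 promoter held AGATAA and CCAAT once each, with 10 CG dinucleotides and 55.3% G or C. Of 32851 RefSeq promoters of this length, 16.3% held CAGCTG, 37.4% CCAAT, 11.2% AGATAA, 23.8% GGAAGT, 16.8% TGTGGT, 10.8% TTGCNNAA and 7.81% TGANTCA. Median G or C content there was 52.7% and the median number of CG dinucleotides 7. These matches describe the letters only.

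Deposited values were signals scaled per library, with totals of 14683769 to 28748205, and were divided by trimmed mean of M values (TMM) factors before use. The share of a library's signal in the 59189 regions was 29.4% and 25.5% in the LT-HSC Npm1 libraries, below the 31.8% to 63.1% of the other 12. The 40 regions of 8 myeloid progenitor genes summed to 3724 to 5326 in LT-HSC and 5702 to 8211 in MPP3 with no overlap. Over all genotypes 32 of them were higher in MPP3 and 8 lower. In its region of smallest p Mpo was called higher in MPP3 (1.52, SE 0.22, adjusted p = 0.0114 with limma). Gfi1 of the same list lay the other way there (-0.87, SE 0.27, adjusted p = 0.191 with limma). The 72 regions of 8 LT-HSC genes summed to 7535 to 10003 and 7559 to 9245, which overlapped. Of these, 48 were lower in MPP3 over all genotypes and 24 higher, with a median of -0.17 against 0.03 among all regions, and none was called. Among other cell types a sort could hold, B cell genes (33 regions, 5 of 5 genes) summed to 3240 to 5205 in LT-HSC and 2724 to 3558 in MPP3, and T or NK cell genes (1 of 5 with a region) to 286 to 799 and 305 to 874. The sums of erythroid (1408 to 2915 and 1817 to 2551), megakaryocyte (2479 to 4097 and 2366 to 3635), mast cell (2 of 4 genes with a region, 820 to 1550 and 915 to 1272) and stromal or endothelial genes (1828 to 3426 and 2189 to 4789) overlapped as well. Over all genotypes 25 of the B cell regions were lower in MPP3 and 8 higher (median -0.27, none called). In Dnmt3a 19 of them were higher (median 0.22). The medians of the other 5 of these lists ran from -0.13 to 0.16 over all genotypes. The part of these lists in the differences below was not tested. In bulk libraries, fewer cells with an open region and less opening per cell cannot be told apart.

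At Obsl1 the lower signal, in the mean over genotypes, ran along the gene. Its leading region (chr1:75505052-75507387, mm10) covered the start of Obsl1 and overlapped the promoter window of Inha, the inhibin alpha gene transcribed the other way from a start 1157 bp away, so the signal cannot be assigned to one of them. In LT-HSC it read 359 and 443 for WT, 321 for Dnmt3a, 293 and 221 for Npm1, and 333 and 431 for Dnmt3a;Npm1. In MPP3 it read 162.5 and 158 for WT, 156 and 197 for Dnmt3a, 129.7 and 138 for Npm1, and 126 for Dnmt3a;Npm1. Every MPP3 library was below every LT-HSC library, as in 0.211% of all regions, and the mean difference over genotypes was -1.16 (SE 0.20, log2 scale). This was the only one of 60 members called in the contrast that selected it, where 0.139% of all regions were called and 0.0270% were called lower. Because that contrast chose both the gene and this region, the call is a description and not a test. That call, of the selecting contrast, was lost without any 1 of 7 libraries, namely LT-HSC WT replicate B, LT-HSC Npm1 replicate A, both MPP3 WT, both MPP3 Npm1 and the MPP3 Dnmt3a;Npm1 library. A plain prior, with which no region was called, ended it too. Over all 24 alternatives in processing and left-out libraries the difference stayed between -1.25 and -1.02.

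The rest of the Obsl1 gene lay the same way in the mean over genotypes. Its 4 other regions inside the gene differed by -0.94 (SE 0.38) at 9.4 kb from the start, -0.55 (SE 0.40) at 17.0 kb, -1.04 (SE 0.27) at 18.7 kb and -0.65 (SE 0.34) at 19.7 kb. The one at 18.7 kb (chr1:75487136-75488315) read 89.3 to 313 in LT-HSC and 45.1 to 91.5 in MPP3, overlapping through LT-HSC WT replicate B. Beyond the 3′ end, the region of highest mean (chr1:75478457-75480409), at the shared promoter of Chpf, a chondroitin synthesis gene, and Tmem198, read 217 to 642 in LT-HSC and 309 to 535 in MPP3. It differed by -0.18 (SE 0.20), and its neighbour within Chpf by 0.32 (SE 0.31). Over the window 8 of 9 regions were lower with a median of -0.65, against a median of 0.03 and 47.5% lower among all regions. In Dnmt3a alone 5 of 9 were lower, and the region at 9.4 kb was at 1.02 (SE 0.84).

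Summed over the 8 regions other than the leading one, Obsl1 signal was 894 to 1616 in LT-HSC and 642 to 876 in MPP3. These ranges did not overlap, but the share of such sums that separate in this way was not counted. The gene was also chosen on this contrast, so the separation is a description. The difference was -0.39 without the leading region and -0.55 with it. Counted over the 5 regions inside the gene it was -1.0. The lower sum was not confined to the gene. Over the 32 regions at the level of 50 within 100 kb the Obsl1 sum differed by -0.58. By genotype that was -0.41 in WT, -0.12 in Dnmt3a, -0.58 in Npm1 and -1.21 in Dnmt3a;Npm1. Such wider sums at the other loci were at -0.32 (Prkg1) to 0.10 (Cdh23). The gap varied between genotypes: without the leading region WT was at -0.18, Dnmt3a at -0.12, Npm1 at -0.26 and Dnmt3a;Npm1 at -1.02, whose MPP3 group is 1 library. The 24 regions of the window under the level of 50 summed lower in MPP3 too (-0.75, though 0.70 in Dnmt3a), as such low regions did in the other windows (-0.27 at Cdh23 to -0.57 at Prkg1). Their part in the Obsl1 difference was not tested.

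**Figure D1:**
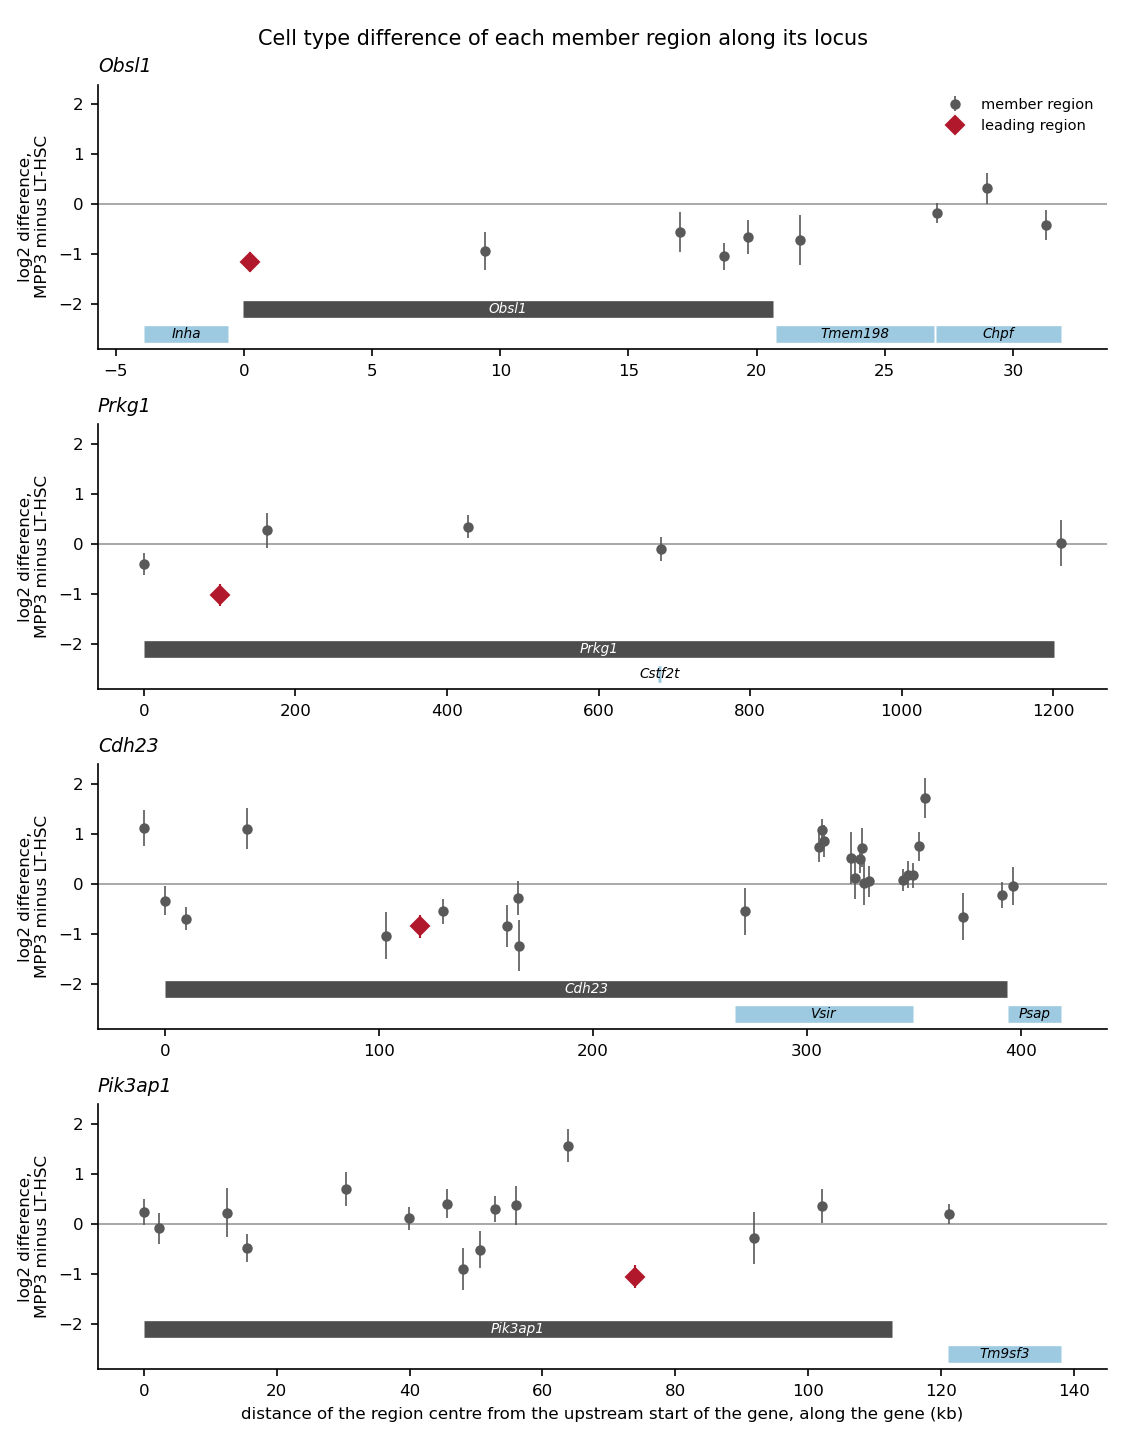
Log2 difference between MPP3 and LT-HSC, averaged over 4 genotypes, of each member region (points, bars 1 SE) against the distance of its centre from the upstream start of the gene in kb, with dark bars for the gene and pale bars for protein-coding neighbours. All 5 points inside Obsl1 are below 0, a single point is below -1 at Prkg1, and the points over Vsir inside Cdh23 are mostly above 0 while most points nearer the Cdh23 start are below it.

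At Prkg1 a single member stood apart in the mean over genotypes. The leading region (chr19:31663551-31665049) covered the internal start, 100.7 kb downstream of the upstream one in a gene of 1200.8 kb. Its LT-HSC values were 486 and 358 for WT, 422 for Dnmt3a, 296 and 162 for Npm1, and 392 and 315 for Dnmt3a;Npm1. Its MPP3 values were 149.8 and 206 for WT, 175 and 159 for Dnmt3a, 109 and 183 for Npm1, and 192 for Dnmt3a;Npm1. Apart from 1 LT-HSC Npm1 library at 162, the cell types did not overlap, and the difference was -1.01 (SE 0.22).

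The upstream start of Prkg1 (chr19:31763785-31765385) read 142 to 267 in LT-HSC and 104 to 187 in MPP3, and differed by -0.39 (SE 0.22). The region of highest mean (chr19:31082085-31084534) covers Cstf2t, an mRNA polyadenylation factor gene nested in Prkg1. It read 209 to 596 and 168 to 472 and differed by -0.10 (SE 0.24). The other 3 regions were at 0.28 (SE 0.35), 0.35 (SE 0.23) and 0.03 (SE 0.46). Without the leading region the summed signal was 549 to 1103 in LT-HSC and 521 to 1007 in MPP3, a difference of -0.06, against -1.02 for the leading region on the same scale. The sum without it varied by genotype, at -0.04 in WT, -0.50 in Dnmt3a, where 6 of 6 regions were lower, 0.51 in Npm1 and -0.20 in Dnmt3a;Npm1. The leading region alone was at -1.25, -1.34, -0.63 and -0.87. Over every region of the window at any level, without the leading one, the sum differed by -0.39, so the contrast with the rest of the locus holds for the members at the level of 50.

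Plpp7 had a single member, which was not lower in MPP3 in the mean over genotypes. It (chr2:32088271-32089005) lay 6.9 kb upstream of the start, within the noncoding gene Gm33126, with 9.6 to 103 in LT-HSC and 64.3 to 214 in MPP3 and a difference of 0.63 (SE 0.38). The value by genotype was -0.11, 0.47, 0.09 and 2.06 for WT, Dnmt3a, Npm1 and Dnmt3a;Npm1, the last with LT-HSC libraries at 84.3 and 9.6. The mean difference rested on that genotype, at 0.29 without the LT-HSC library at 9.6, 0.96 without its pair and 0.15 without the MPP3 Dnmt3a;Npm1 library. The 27 regions of the window under the level of 50 summed lower in MPP3 (-0.42). No region at the level of 50 covered the Plpp7 gene. The region that had carried its name (chr2:32127661-32128883) lay 16846 bp beyond the gene, outside the window, and is described here although it is no member. It read 234 and 266 for WT, 319.5 for Dnmt3a, 185 and 194 for Npm1, and 301 and 178 for Dnmt3a;Npm1 LT-HSC. In MPP3 it read 62.2 and 107 for WT, 101 and 145 for Dnmt3a, 92.6 and 112 for Npm1, and 89.9 for Dnmt3a;Npm1. The cell types did not overlap, with MPP3 below as in 0.211% of all regions, and the difference was -1.28 (SE 0.24). A region 18468 bp beyond the gene differed by -0.59 (SE 0.40).

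**Figure D2:**
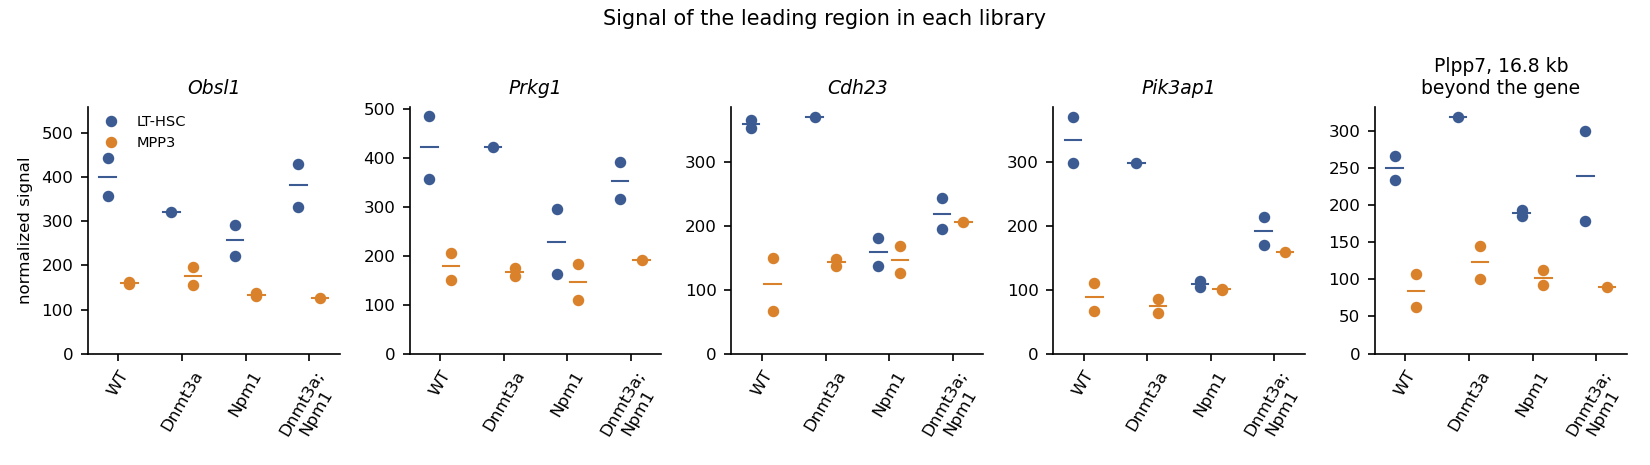
Normalized signal (vertical axis from 0) of the leading region of 4 loci and of the region beyond Plpp7 in each of the 14 libraries by donor genotype, with LT-HSC in blue, MPP3 in orange and short lines for group means. At Obsl1 and beyond Plpp7 no MPP3 point reaches an LT-HSC point, whereas at Cdh23 and Pik3ap1 the LT-HSC points of the genotypes with the Npm1 allele lie near the MPP3 points.

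Cdh23 held regions that differed in opposite directions. The leading region (chr10:60576722-60578096), in the gene 119.1 kb from its start, read 354 and 367 for WT, 372 for Dnmt3a, 137 and 182 for Npm1, and 196 and 244 for Dnmt3a;Npm1 LT-HSC. In MPP3 it read 66.9 and 150.1 for WT, 149 and 137 for Dnmt3a, 126 and 169 for Npm1, and 207 for Dnmt3a;Npm1. The difference was -1.80 (SE 0.41) in WT, the contrast that selected it, where limma called 0 of 59189 regions (0%) and 3152 had an unadjusted p under 0.05. Without MPP3 WT replicate A, the lowest library, it was -1.24, and without replicate B -2.36.

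Over all genotypes 12 of the 28 Cdh23 members were lower and 16 higher, with a median of 0.07. By position, of the 13 that overlap Vsir, the gene of the immune checkpoint receptor VISTA nested in the 3′ part of Cdh23, 12 were higher (median 0.19), several of them near 0. Of the 10 on the side of the Cdh23 start, 8 were lower (median -0.61), and of the 5 beyond Vsir, 3 were lower (median -0.04). The division was less clear in Npm1, where 7 of the 13 were higher and 7 of the 10 lower (median -0.30), and in Dnmt3a;Npm1, where the 10 had a median of -0.13. The Cdh23 start itself (chr10:60695949-60697486) read 62.0 to 196 in LT-HSC and 45.5 to 180.2 in MPP3, a difference of -0.33 (SE 0.29). The Vsir start (chr10:60346353-60347480), of highest mean, read 86.9 to 322 and 168 to 359, a difference of 0.18 (SE 0.25).

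Outside the leading region, 2 Cdh23 members did not overlap between cell types. One 9.5 kb from the start (chr10:60686154-60687864), over the start of the predicted gene Gm51803, was lower in MPP3, with 162 to 346 in LT-HSC and 111.7 to 156 in MPP3 (-0.69, SE 0.23). One between the Cdh23 3′ end and Vsir (chr10:60340994-60341984) was higher, with 15.2 to 53.3 and 56.9 to 146 (1.72, SE 0.40). Among all regions 0.211% lay without overlap below and 0.441% above, and 1 Obsl1 member and 1 Cdh23 member lay below. Inside Vsir, chr10:60389084-60390127 read 76.0 to 144 in LT-HSC and 137 to 298 in MPP3 (1.08, SE 0.23), with 6 of 7 MPP3 libraries above all LT-HSC libraries. Without the leading region the Cdh23 sum differed by 0.09 and with it by 0.02.

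At Pik3ap1 a lower and a higher element lay 9123 bp apart. The leading region (chr19:41310727-41311677), 73.9 kb into the gene, read 299 and 371 for WT, 298 for Dnmt3a, 114 and 105 for Npm1, and 213 and 169 for Dnmt3a;Npm1 LT-HSC. In MPP3 it read 66.9 and 110.9 for WT, 85.2 and 64.2 for Dnmt3a, 101 and 100.3 for Npm1, and 159 for Dnmt3a;Npm1. The WT difference, which selected it, was -1.90 (SE 0.41). Its neighbour towards the start (chr19:41320800-41321845) went the other way: LT-HSC values were 27.9 to 116 and MPP3 values 59.6 to 272, with 6 of 7 above all LT-HSC libraries (1.57, SE 0.33).

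The start of Pik3ap1 (chr19:41384414-41385658) read 91.0 to 361 in LT-HSC and 87.9 to 288 in MPP3, a difference of 0.24 (SE 0.26). The region of highest mean (chr19:41262939-41265033), at the start of Tm9sf3, the neighbouring gene of a membrane protein family, differed by 0.20 (SE 0.20). In the window 6 of 16 regions were lower and 10 higher, with a median of 0.22. The sum without the leading region differed by 0.15 (1436 to 3097 in LT-HSC, 1658 to 3022 in MPP3), and the leading region alone by -1.08.

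**Figure D3:**
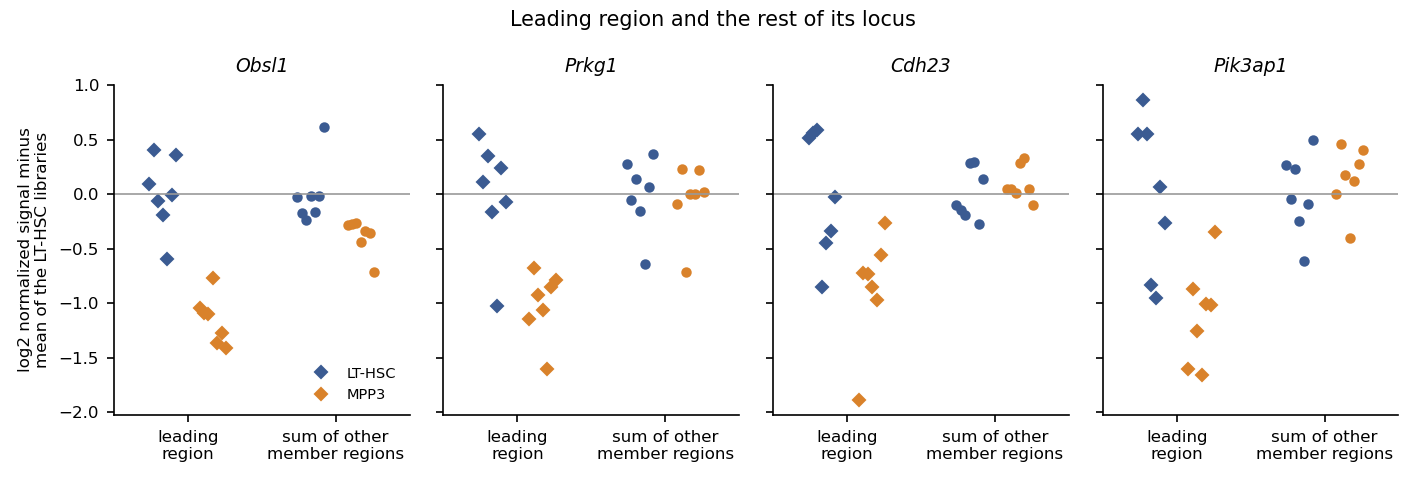
Log2 normalized signal of the leading region (diamonds) and of the sum of the other member regions (circles) of 4 loci in each library, relative to the mean of the 7 LT-HSC libraries, with LT-HSC in blue and MPP3 in orange. The sums of the other regions overlap between cell types at Prkg1, Cdh23 and Pik3ap1, and at Obsl1 the LT-HSC sums (894 to 1616) stay above the MPP3 sums (642 to 876).

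The 10 mutant libraries did not enter the choice of Cdh23 and Pik3ap1, so the cell type difference was tested in them. The mean difference of the Pik3ap1 leading region over the mutant genotypes was -0.78 (n = 5 and 5). An exact two-sided permutation test of the cell type labels within genotype gave p = 0.0185, the smallest that 54 permutations can give. The Cdh23 leading region differed by -0.53 (exact permutation p = 0.0741, n = 5 and 5). Both means rest mostly on Dnmt3a, whose LT-HSC group is a single library. Without a pseudocount the Pik3ap1 region was at -2.01 in Dnmt3a, -0.12 in Npm1 and -0.25 in Dnmt3a;Npm1. The Cdh23 region was at -1.38, -0.11 and -0.08 in that order. The sums of the other members differed by 0.15 at Pik3ap1 (exact permutation p = 0.556) and by 0.05 at Cdh23 (exact permutation p = 0.667). With Benjamini-Hochberg adjustment over these 4 exact tests the values were 0.0741, 0.148, 0.667 and 0.667. In the limma fit over all regions neither leading region passed (adjusted p = 0.481 and 0.563). No member was called there, as none of all regions was (0%), while 14 of 60 members and 9.04% of all regions had an unadjusted p under 0.05. The 60 include the members of Obsl1, Plpp7 and Prkg1, whose choice used the mutant libraries, so that count is a description and not a test.

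The leading regions are given by genotype as descriptions. Means below 0 at Obsl1, at Prkg1 and beyond Plpp7, and large WT values at Cdh23 and Pik3ap1, follow from the contrasts that selected them. Selection on the mean favours a value below 0 in each genotype without fixing it. The loci were not tested against each other. At Obsl1 the WT difference was -1.30 (SE 0.36), that of Dnmt3a -0.86 (SE 0.44), that of Npm1 -0.91 (SE 0.36) and that of Dnmt3a;Npm1 -1.56 (SE 0.44). At Prkg1 it was -1.23 (SE 0.39), -1.32 (SE 0.48), -0.62 (SE 0.39) and -0.86 (SE 0.48) in the same order, and beyond Plpp7 -1.57, -1.37, -0.87 and -1.33. At Cdh23 it was -1.80 in WT and -1.35 (SE 0.50) in Dnmt3a, but -0.11 (SE 0.41) in Npm1 and -0.08 (SE 0.50) in Dnmt3a;Npm1. At Pik3ap1 it was -1.90 and -1.96 (SE 0.51), and then -0.11 (SE 0.41) and -0.25 (SE 0.51).

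**Figure D4:**
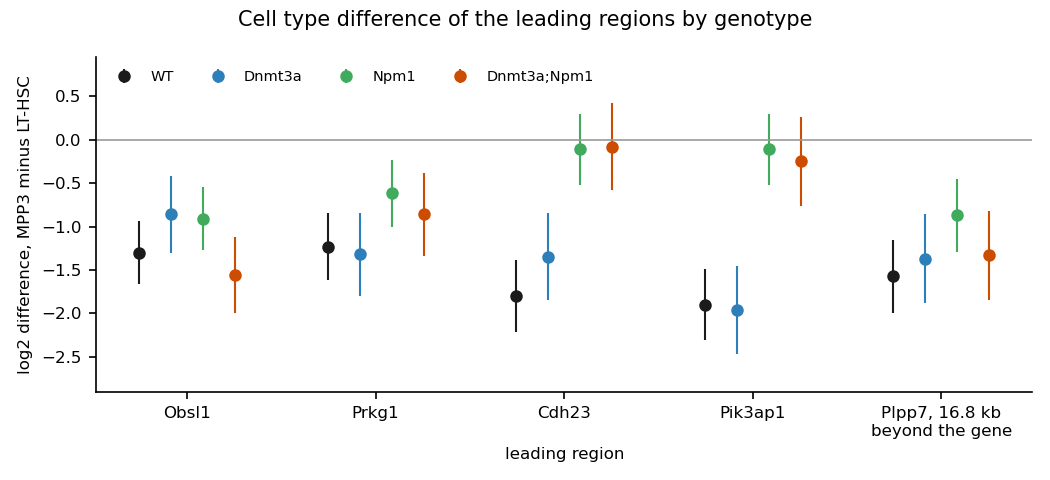
Log2 difference between MPP3 and LT-HSC (points, bars 1 SE) of the leading regions of 4 loci and of the region beyond Plpp7 in each donor genotype. The points of Obsl1, of Prkg1 and of the region beyond Plpp7 are all below 0, from -0.62 to -1.57. The Cdh23 and Pik3ap1 points are from -1.35 to -1.96 in WT and Dnmt3a and from -0.08 to -0.25 in both genotypes with the Npm1 allele.

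The genotypes lay farther apart in LT-HSC, where the Cdh23 region read 354 to 372 in WT and Dnmt3a and 137 to 244 in genotypes with Npm1, and the Pik3ap1 region 298 to 371 and 105 to 213. Neither pair of ranges overlapped, but the share of all regions that separate in this way was not counted. Between Npm1 and WT LT-HSC 14 of 60 members and 23.3% of all regions had an unadjusted p under 0.05. In MPP3 the same ranges were 66.9 to 150.1 and 126 to 207 at Cdh23, and 64.2 to 110.9 and 100.3 to 159 at Pik3ap1, and both pairs overlapped. Differences from WT are descriptions for these loci, whose choice used WT. A comparison added after this pattern was seen left WT out and set the cell type difference of the genotypes with Npm1 against that of Dnmt3a. It was 1.77 (SE 0.60, adjusted p = 0.201 with limma) at Pik3ap1 and 1.26 (SE 0.60, adjusted p = 0.317) at Cdh23, against -0.38 (SE 0.52) at Obsl1 and 0.58 (SE 0.57) at Prkg1. Other members lay the opposite way, and 27 of 60 were below 0 in this comparison. In the Obsl1 window chr1:75474323-75475992 was at -2.85 (SE 0.77), and in Cdh23 chr10:60592832-60593947 was at -3.36 (SE 1.22). The comparison rests on 1 LT-HSC Dnmt3a library, and both LT-HSC Npm1 libraries were lowest in the share of signal in regions. The part of either in the pattern was not tested. In all 4 such interaction terms limma called none of all regions (0%) and none of 60 members, of which 2 (Dnmt3a against WT), 5 (Npm1), 2 (Dnmt3a;Npm1) and 8 (Npm1 against Dnmt3a) had an unadjusted p under 0.05, against 4.71%, 11.1%, 2.05% and 15.4% of all regions.

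Within Npm1 animals limma called 3 of 60 members between cell types, all higher in MPP3, against 6.62% of all regions. They were the Pik3ap1 neighbour of the leading region (2.12, SE 0.59, adjusted p = 0.0344), the Tm9sf3 start (1.50, SE 0.36, adjusted p = 0.0202) and a region between Vsir and the Cdh23 3′ end (chr10:60343946-60344615, 1.73, SE 0.52, adjusted p = 0.0486). Of these libraries the LT-HSC pair read 26.5 and 94.8 at the last region, and the MPP3 pair 177 and 179. The share of members called, 3 of 60, was near that of all regions. With the share of signal in regions as a covariate, all 3 calls were lost (adjusted p = 1), with the Cdh23 region at 1.99, the Pik3ap1 neighbour at 2.03 and the Tm9sf3 start at 0.87. The Tm9sf3 value was 0.32 with cyclic loess (adjusted p = 0.595) and 0.69 with quantile normalization (adjusted p = 0.117), where the other 2 stayed at 1.77 to 2.29. With cyclic loess the Cdh23 region (adjusted p = 0.131) and the Pik3ap1 neighbour (0.107) lost their calls too. A plain prior ended all 3 calls (0.157 to 0.16). A row mean of at least 100 ended those of the Cdh23 region (0.162) and the Pik3ap1 neighbour (0.1). The Cdh23 call was lost with a pseudocount of 1 (0.0516) and with the replicate block (0.0523). Leaving out 1 of the 4 Npm1 libraries ended at least 1 call each time, and without either MPP3 Npm1 library none of the 3 passed (adjusted p of 0.0642 to 0.182 without replicate A and 0.361 to 0.409 without replicate B), although the differences stayed at 1.69 to 2.18 and 1.30 to 2.05. Without LT-HSC Npm1 replicate A the Cdh23 region was at 0.88 (adjusted p = 0.447) and the Pik3ap1 neighbour at 1.63 (adjusted p = 0.239), and without replicate B the Pik3ap1 neighbour was at 2.62 (adjusted p = 0.094) and the Tm9sf3 start at 1.32 (adjusted p = 0.152). The Cdh23 call, the nearest to the threshold, was also lost without any 1 of the 4 WT libraries (adjusted p of 0.0556 to 0.0675) or without LT-HSC Dnmt3a;Npm1 replicate B (adjusted p = 0.0501). In WT, Dnmt3a and Dnmt3a;Npm1 no region was called between cell types (0% each). At an unadjusted p under 0.05 there were 8, 7 and 6 of 60 members, against 5.33%, 8.31% and 3.49% of all regions.

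Among genotypes in LT-HSC, Npm1 against WT gave 3 limma calls among 60 members beside 5.91% of all regions, all in loci chosen with WT libraries and so given without a test. The Pik3ap1 leading region was at -1.57 (SE 0.41) and the Tm9sf3 start at -1.54 (SE 0.36). A region in the 3′ part of Cdh23 (chr10:60322819-60324126) was at 3.19 (SE 0.85). That region read 18.0 and 15.0 for WT, 96.4 for Dnmt3a, 194 and 172 for Npm1, and 47.7 and 18.3 for Dnmt3a;Npm1, and 9.5 to 78.8 in MPP3.

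The Tm9sf3 start was the only member called between mutants. It was higher in Dnmt3a;Npm1 than in Npm1 LT-HSC (1.48, SE 0.36, adjusted p = 0.0448 with limma), against 1.70% of all regions. Its LT-HSC Npm1 values of 293 and 227 lay below the 416 to 903 of the other 12 libraries, so its differences from WT, Dnmt3a;Npm1 and MPP3 rest on the same 2 low libraries. The call was lost with the share of signal in regions as a covariate (1.04, adjusted p = 0.832), with cyclic loess (0.51, adjusted p = 0.454) and with quantile normalization (0.82, adjusted p = 0.11). A row mean of at least 20 (adjusted p = 0.191) or 100 (0.0709), the replicate block (0.0603) and a plain prior (0.244) ended the call too. It was also lost, with the difference at 1.21 to 1.66, without any 1 of 7 libraries: both LT-HSC WT (adjusted p = 0.082 and 0.0616), both LT-HSC Npm1 (0.0612 and 0.227), LT-HSC Dnmt3a;Npm1 replicate B (0.341) and both MPP3 Npm1 (0.0632 and 0.0681).

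The members of Obsl1, Plpp7 and Prkg1, whose choice did not rest on a genotype, had no call in any genotype comparison. At the Obsl1 leading region Npm1 differed from WT by -0.64 (SE 0.36, adjusted p = 0.294 with limma) in LT-HSC and by -0.25 (SE 0.36, adjusted p = 1) in MPP3. At the Prkg1 leading region the same values were -0.92 (SE 0.39, adjusted p = 0.163) and -0.31 (SE 0.39, adjusted p = 1). The single Plpp7 member differed by -1.32 (SE 0.67, adjusted p = 0.717) between Dnmt3a;Npm1 and WT LT-HSC, with 9.6 in 1 of 2 libraries and 84.3 in the other. In the remaining LT-HSC comparisons no member was called, beside 0.00338% of all regions for Dnmt3a;Npm1 against WT and 0% for Dnmt3a against WT, Dnmt3a;Npm1 against Dnmt3a and Npm1 against Dnmt3a. At an unadjusted p under 0.05 there were 0, 1, 0 and 8 of 60 members in that order, against 7.15%, 1.83%, 3.16% and 16.6% of all regions. In MPP3 no member was called either, beside 0.00845% of all regions for Npm1 against Dnmt3a and 0% for the other 5 comparisons. At an unadjusted p under 0.05 there were 5 of 60 members for Npm1 against Dnmt3a (10.9% of all regions), 3 for Dnmt3a against WT (10.1%), 5 for Dnmt3a;Npm1 against Dnmt3a (5.35%) and 0 for Npm1 against WT (0.115%), Dnmt3a;Npm1 against WT (0.478%) and Dnmt3a;Npm1 against Npm1 (0.654%).

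Across the 14 libraries the leading regions of Cdh23 and Pik3ap1 had r = 0.91, those of Prkg1 and Pik3ap1 0.85, of Obsl1 and Prkg1 0.85 and of Prkg1 and Cdh23 0.77. Obsl1 had 0.66 with Cdh23 and 0.72 with Pik3ap1. Of all regions over 1 Mb away or on other chromosomes, those most like Cdh23 were the Pik3ap1 region, one at Actl6b and Tfr2 (r = 0.89) and one in Exoc6b (0.88). Those most like Pik3ap1 were near Gm34489 (0.93), in Ttll3 (0.92) and the same one in Exoc6b (0.91), with Cdh23 not among them. The Obsl1 region was most like one at Nr5a1 (0.93), and Prkg1 most like one in Rbfox2 (0.91). These are descriptions over the same 14 libraries and cell types that selected the loci, which also share library scale and the share of signal in regions.

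Genes of the same families were set beside the members by counts. The obscurin family and 3M complex genes (5 of 6 with a region, 42 regions) had 0 called between cell types over all genotypes, 28 lower and a median of -0.22, though in Dnmt3a 26 were higher with a median of 0.19. Speg, of the obscurin family and a neighbour of Obsl1 on chromosome 1, was at -0.65 (SE 0.20, adjusted p = 0.187 with limma) in its region of smallest p, and Cul7, the cullin of the 3M complex, at 0.80 (SE 0.36, adjusted p = 0.364). Genes of cGMP signalling (50 regions, median -0.07) had 0 called, and the soluble guanylate cyclase genes Gucy1b1 and Gucy1a1 were at -0.88 (SE 0.24, adjusted p = 0.136) and -0.90 (SE 0.32, adjusted p = 0.248), while Nos3, the endothelial nitric oxide synthase gene, was at 0.54 (SE 0.20, adjusted p = 0.277). Lipid phosphatase genes (22 regions, median 0.08), Usher and tip link genes (57 regions, median -0.06) and genes of PI3K adaptor signalling (123 regions, median 0.09) had 0 called as well. In the last list Pik3cd, a catalytic subunit gene, was at -0.97 (SE 0.28, adjusted p = 0.15) and Syk, a B cell kinase gene, at 0.62 (SE 0.23, adjusted p = 0.266). At an unadjusted p under 0.05 these lists had, in the order named, 8 of 42, 6 of 50, 2 of 22, 9 of 57 and 9 of 123 regions, against 12.5% of all regions.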

How the data were processed

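ATAC-seq libraries of sorted LT-HSC (7) and MPP3 (7) were deposited by the authors as 1 table of signal values over 705361 mm10 regions. The values are whole numbers scaled per library by a factor not given in the sources used here, so they are not read counts and depth in reads is unknown. Per the submitters' processing notes, HOMER 4.10, R 3.6.0 and DiffBind 2.12.0 are named without a role, as is edgeR 3.26.4. Aligner and peak caller are not given in the sources used here.

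Regions with a row mean of at least 50 (59189, 8.39%) were tested. Values were divided by TMM factors computed in R, and log2(value + 4) was fitted with limma 3.58.1 in R 4.3.3 over 8 groups with a robust trended prior. Differences are on that log2 scale, which understates changes of low regions. A call is a Benjamini-Hochberg adjusted p under 0.05 over all tested regions of a comparison. The fit was checked on simulated data with independent errors. The simulation did not model differences between libraries in the share of signal in regions, so it cannot show how these affect calls. Libraries were grouped by the labels' cell type and genotype, with no sample left out.

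The member genes, the related gene lists and the marker lists were chosen with earlier results of these data known. Regions were named where they led a locus, had its highest mean, overlapped an end of the gene or were called. The regions near Plpp7 but outside its window, and the further Cdh23 and Pik3ap1 regions given with ranges, were named after their values were seen. Gene bounds and promoters are from RefSeq (GRCm38.p6), and whether region starts count from 0 or 1 is not given in the sources used here. Alternatives were other row means, pseudocounts, scalings, a covariate for the share of signal in regions, a replicate block, a plain prior and leaving out each library.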

Additional observations from a re-analysis of the deposited data

How the results depend on the processing

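Over 24 alternatives the leading regions kept their sign over all genotypes: Obsl1 at -1.25 to -1.02, Prkg1 at -1.16 to -0.87, Cdh23 at -1.09 to -0.66 and Pik3ap1 at -1.32 to -0.75. The region beyond Plpp7 was at -1.39 to -1.14. Member calls depended on the setting. For Npm1 against WT in LT-HSC (3 calls) there were 1 with a row mean of at least 100, 10 scaled to the library total, 0 with cyclic loess, 0 with the share of signal in regions as covariate, 0 with a plain prior, and 0 to 3 leaving out 1 library, with 0 without either LT-HSC WT library or LT-HSC Npm1 replicate B. For Dnmt3a;Npm1 against Npm1 in LT-HSC (1 call) there were 0 with a row mean of at least 20, 2 scaled to the library total, 0 with cyclic loess, the covariate or a plain prior, 0 with the replicate block, and 0 to 5 leaving out 1 library. Npm1 against Dnmt3a in LT-HSC gave 1 call scaled to the library total. The cause was not tested.

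Signs changed for the Cdh23 sum (-0.15 against 0.02) and the Pik3ap1 sum (-0.10 against 0.07) over all regions within 10 kb at any level. The median of the Prkg1 regions other than the leading one ran from -0.19 to 0.25 (0.03). Signs also changed in the added comparison of genotypes with Npm1 against Dnmt3a. There Obsl1 (-0.38) was 0.55 with a row mean of at least 20 and 0.47 scaled to the library total, and Prkg1 (0.58) was -0.05 with cyclic loess and -0.50 with the covariate. In that comparison Cdh23 was at 0.41 to 2.18 and Pik3ap1 at 1.23 to 2.69. In the mutants the Cdh23 leading region was at -0.76 to -0.11 (limma adjusted p of 0.353 to 0.999) and that of Pik3ap1 at -1.06 to -0.19 (0.198 to 0.999).

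Calls over all regions were fragile too. The 82 between cell types over all genotypes were 327 scaled to the library total (294 higher, 33 lower, median of all regions 0.13), 341 without MPP3 Dnmt3a replicate A, 0 with a plain prior or without MPP3 WT replicate B, and 3 to 9 without MPP3 WT replicate A, either MPP3 Npm1 library, the MPP3 Dnmt3a;Npm1 library or LT-HSC Npm1 replicate A. The 3501 for Npm1 against WT in LT-HSC were 8905 scaled to the library total (median -0.57), 112 with cyclic loess, 0 with the covariate or a plain prior, and 191 to 4834 leaving out 1 library, the fewest without LT-HSC Npm1 replicate B. The 3918 between cell types in Npm1 were 10083 scaled to the library total (median 0.61), 148 with cyclic loess and 0 with the covariate, a plain prior or without MPP3 Npm1 replicate B. The 1007 for Dnmt3a;Npm1 against Npm1 in LT-HSC were 4 with cyclic loess, 416 with the replicate block, 0 with the covariate or without LT-HSC Dnmt3a;Npm1 replicate B, and 2953 without its replicate A. Whether the replicate letters pair the libraries is not known. Deviations from group means correlated at -0.30 to 0.43 over 15 pairs of groups, 1 of them over 0.1. With so few libraries per group this cannot exclude a pairing. Depth in reads is unknown, so no counting error can be given.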
